A study of Mus musculus with 4 samples.

Results

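Mediator is the large coactivator complex that carries signals from DNA-bound transcription factors to RNA polymerase II. The genes described here were chosen by name: every gene of both deposited expression tables whose symbol is Med followed by a number, together with Cdk8, Cdk19 and Ccnc, the kinases and the cyclin that belong to the complex. The rule found 33 of 22056 genes, in every library. Med10 drew attention to the complex because it was lower in the libraries labelled ICOS FC, so its difference between the labels is a description that was known when the genes were picked. The question put to the other 32 genes was whether they shared it.

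The study profiled single regulatory T (Treg) cells, the CD4+ T cells that restrain immune responses, from C57BL/6 mice with and without ICOS, a costimulatory receptor of the CD28 family. Live cells carrying CD4, TCRβ and YFP were sorted to over 95% purity from the spleen at steady state or from cervical draining lymph nodes (LN) 1 day after oxazolone, a contact-sensitizing hapten, in mice of the genotypes ICOS WT and ICOS-deficient (titled ICOS FC). None of the sources used here states what drives YFP, how Icos was removed, the age of the animals or how many gave cells to a library. Each of the 4 groups was 1 library of 3' tags, so there is no replicate check and no test across animals. Intervals in brackets are exact 95% intervals that treat every UMI (unique molecular identifier, 1 captured transcript) as independent and cover counting error only. Levels are UMIs per 1000000 UMIs of a library (CPM), not scaled by gene length. Pairs of values give the library labelled ICOS WT before the one labelled ICOS FC, and a log2 ratio divides ICOS FC by ICOS WT.

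The spleen libraries held 4995 and 5917 cells and the LN libraries 1897 and 2066 cells, with 15045805 to 28256866 UMIs per library and medians of 4361 to 6789 UMIs per cell. Icos transcripts went against the labels, at 112 and 258 CPM in spleen and 598.5 and 927.8 CPM in LN, so the libraries are called by their labels throughout; a 3' tag outside a deleted part checks nothing. An exchange of labels would turn the direction of each ratio below. Foxp3, the lineage factor of Treg cells, was at 53.2 to 72.2 CPM in the 4 libraries, and all 5 Treg and all 4 CD4 T cell markers had UMIs in each. Of markers of other cells, the B cell gene Cd79b was at 10.96 and 19.6 CPM in spleen and 10.90 and 22.4 CPM in LN, and Ms4a1, a B cell surface protein gene, at 0.142 to 0.519 CPM. The 4 CD8 T and NK genes summed to 23.7 to 52.6 CPM, with Ncr1 at 0 in 3 libraries, and the 4 myeloid genes to 117 to 159 CPM, nearly all of it Cst3. The part of these cells in the results was not tested. The LN libraries shared 30 barcodes (1.58% and 1.45% of their cells) and the spleen libraries 8.

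Mediator is built from a head, a middle and a tail module, held together by the scaffold subunit Med14, and a separable kinase module. The head and middle contact RNA polymerase II and the general transcription factors, the tail receives many activators, and the kinase module, with Cdk8 or its paralog Cdk19, cyclin C, Med12 and Med13, binds the core reversibly and keeps polymerase away while bound. Chemical inhibition of Cdk8 and Cdk19 is known to favour Foxp3 expression in activated CD4 T cells. Med10 is a small middle subunit that lies against Med14.

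Med10 lies on mouse chromosome 13 at 69802395 to 69816104 on the plus strand (GRCm38, GENCODE M21), and the annotation gives it coding transcripts that begin at separate upstream and downstream starts. Its promoter windows are printed because the deposited values sum all transcripts of the gene, so that the sequences show where those transcripts can begin; Med28, on chromosome 5 at 45520229 to 45529276, is printed beside them as the next most abundant subunit under the label ICOS WT. RefSeq gives 300-base windows around annotated starts (GRCm38.p6): chr13:69802120-69802419 and chr13:69809632-69809931 for Med10 and chr5:45519979-45520278 for Med28, each on the plus strand. Capitals mark matches, on either strand, to the ETS family core CCGGAAG, the GC box GGGCGG, the NF-Y box CCAAT or the TATA box TATAAA.
Med10 upstream start: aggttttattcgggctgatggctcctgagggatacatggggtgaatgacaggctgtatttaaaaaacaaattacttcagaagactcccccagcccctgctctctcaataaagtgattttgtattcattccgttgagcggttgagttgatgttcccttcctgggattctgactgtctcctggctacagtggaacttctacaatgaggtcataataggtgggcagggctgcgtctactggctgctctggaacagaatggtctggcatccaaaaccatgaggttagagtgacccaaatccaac
Med10 downstream start: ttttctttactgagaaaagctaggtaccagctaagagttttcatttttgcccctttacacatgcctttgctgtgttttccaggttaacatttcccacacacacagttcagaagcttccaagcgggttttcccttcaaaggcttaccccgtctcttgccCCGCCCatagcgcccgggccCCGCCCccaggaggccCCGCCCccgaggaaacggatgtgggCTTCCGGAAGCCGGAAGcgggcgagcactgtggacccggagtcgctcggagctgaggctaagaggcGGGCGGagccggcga
Med28: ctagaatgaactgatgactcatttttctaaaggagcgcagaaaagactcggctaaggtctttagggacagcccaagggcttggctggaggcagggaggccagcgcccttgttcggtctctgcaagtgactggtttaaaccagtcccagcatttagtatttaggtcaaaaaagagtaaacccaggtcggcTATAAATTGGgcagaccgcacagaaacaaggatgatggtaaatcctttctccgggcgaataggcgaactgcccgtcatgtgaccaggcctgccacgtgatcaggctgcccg

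The upstream Med10 window held none of the 5 motifs searched, with 4 CpG dinucleotides and 47.3% GC. The downstream window held 20 CpG, 59.0% GC, 4 GC boxes and 3 ETS cores, at bases 220 to 226 on the reverse strand, 223 to 229 and 230 to 236, of which the first pair overlap. The Med28 window held a TATA box that shares a base with an NF-Y box on the reverse strand. Of the members, 28 had windows in the RefSeq table, 32 windows in all. CCGGAAG was in 28.1% of the members' windows and 8.86% of all 32851 windows, GGGCGG in 62.5% and 35.7%, CCAAT in 37.5% and 37.4%, and TATAAA in 9.38% and 13.6%. The members' windows had medians of 20 CpG and 57.8% GC, where all windows had 7 CpG and 52.7% GC. CCGGAAG and GGGCGG each hold a CpG, and the part of base content in their shares was not tested. The cyclic AMP element TGACGTCA was in 1 member window (Med21; 1.79% of all windows). The genes with the ETS letters were Med10, Med14, Med15, Med17, Med18, Med19, Med4 and Med6, so Med10 carried these letters together with 7 members whose levels are given below. A match is a run of letters and says nothing of binding.

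Med10 was the most abundant Mediator transcript in both libraries labelled ICOS WT and lay well below that level in both labelled ICOS FC. In the spleen it had 4120 and 1975 UMIs, or 152 and 69.9 CPM, which is 2.17-fold lower (log2 -1.12 [-1.19, -1.04]). In the LN it had 2592 and 1339 UMIs, or 172 and 77.3 CPM, a log2 ratio of -1.16 [-1.25, -1.06]. Of genes reaching 20 CPM, none of 5105 in spleen and 10 of 5506 in LN had a lower ratio. Med28, the next most abundant subunit under the label ICOS WT, was at 121 and 123 CPM in spleen and 134 and 152 CPM in LN. Med10 gave 13.4% [13.0, 13.8] and 6.70% [6.41, 6.99] of all Mediator UMIs in spleen and 13.9% [13.4, 14.4] and 6.72% [6.38, 7.08] in LN, so its share under each label was nearly the same in both tissues. Of Med10 and Med28 UMIs together, Med10 made up 55.7% and 36.2% in spleen and 56.2% and 33.7% in LN, and the order of these 2 subunits was reversed between the labels.

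Both the share of cells with a Med10 UMI and the mean Med10 UMIs of those cells were lower under the label ICOS FC. Neither number is separate from the level of the gene. Spleen cells with a Med10 UMI made up 53.5% [52.1, 54.9] and 27.6% [26.4, 28.7] of their libraries, and such LN cells 62.6% [60.4, 64.8] and 41.9% [39.8, 44.1]. Without thinning, cells with a Med10 UMI held 1.54 and 1.21 of them on average in spleen and 2.18 and 1.55 in LN. With each cell thinned to 2000 UMIs, which left out 59 to 155 cells per library, the shares were 25.8% and 13.0% in spleen and 27.2% and 14.3% in LN. Med28 shares of thinned cells were 22.6% and 22.5% in spleen and 25.2% and 24.1% in LN. Mediator is used by all cell types, so no cell type without Med10 was at hand to measure free RNA. When cells were put into low, middle and high classes of equal size by UMIs per cell, the Med10 ratio was -1.23, -1.14 and -1.05 in spleen and -0.94, -1.21 and -1.20 in LN, and each of these 6 intervals lay below equality. Fewer cells that use the gene and less RNA per cell cannot be told apart in such sparse counts.

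**Figure D1:**
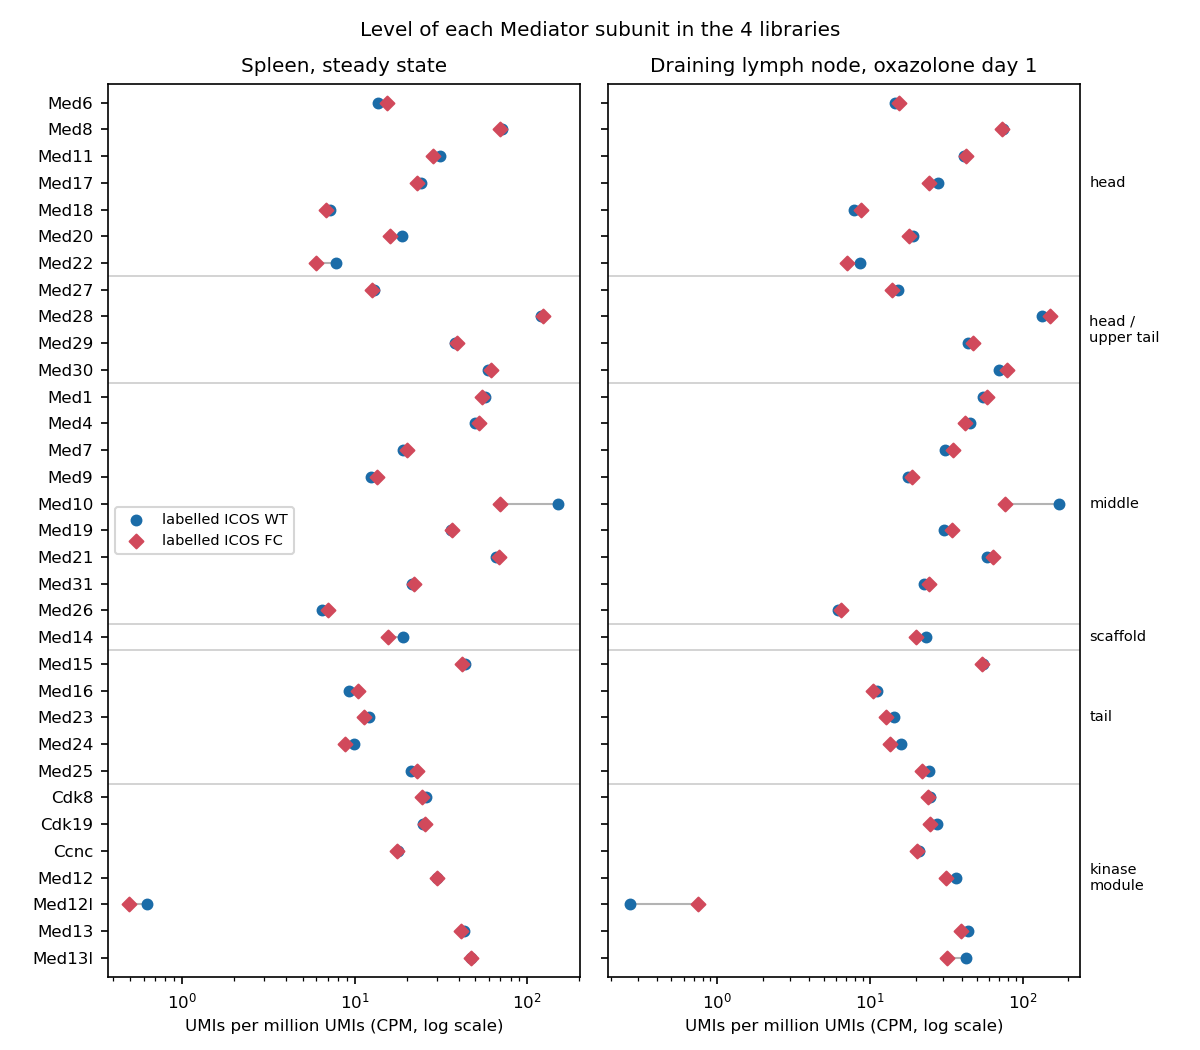
Level of each of the 33 Mediator subunits (rows, grouped by module) in UMIs per 1000000 UMIs on a log scale, with circles for the libraries labelled ICOS WT and diamonds for those labelled ICOS FC. The symbols of most subunits nearly touch, while Med10 goes from 152 to 69.9 CPM in spleen and from 172 to 77.3 CPM in LN; Med12l, at the far left, rests on 4 to 17 UMIs.

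The lower Med10 was not shared by other subunits at that size. The rule for calling a gene higher or lower asked for 20 CPM or more in 1 of the libraries, a difference of 1.5-fold or more, and an interval that leaves out equality; it is a rule of size and not a test. Of the other members, 18 in spleen and 21 in LN reached 20 CPM, and 0 were higher and 0 lower in either tissue. Of all genes, 0.588% were higher and 0.255% lower in spleen, and 1.11% were higher and 1.05% lower in LN, and read against these shares a count of 0 does not set the other members apart. The 32 other members summed to 977 and 974 CPM in spleen and 1065 and 1072 CPM in LN. Over the 31 of them with at least 5 CPM, the median log2 ratio was 0.01 in spleen (-0.03 over all genes) and -0.03 in LN (-0.04 over all genes). Their ratios ran from -0.40 to 0.18 in spleen and from -0.41 to 0.18 in LN, and Med10 lay outside both ranges.

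**Figure D2:**
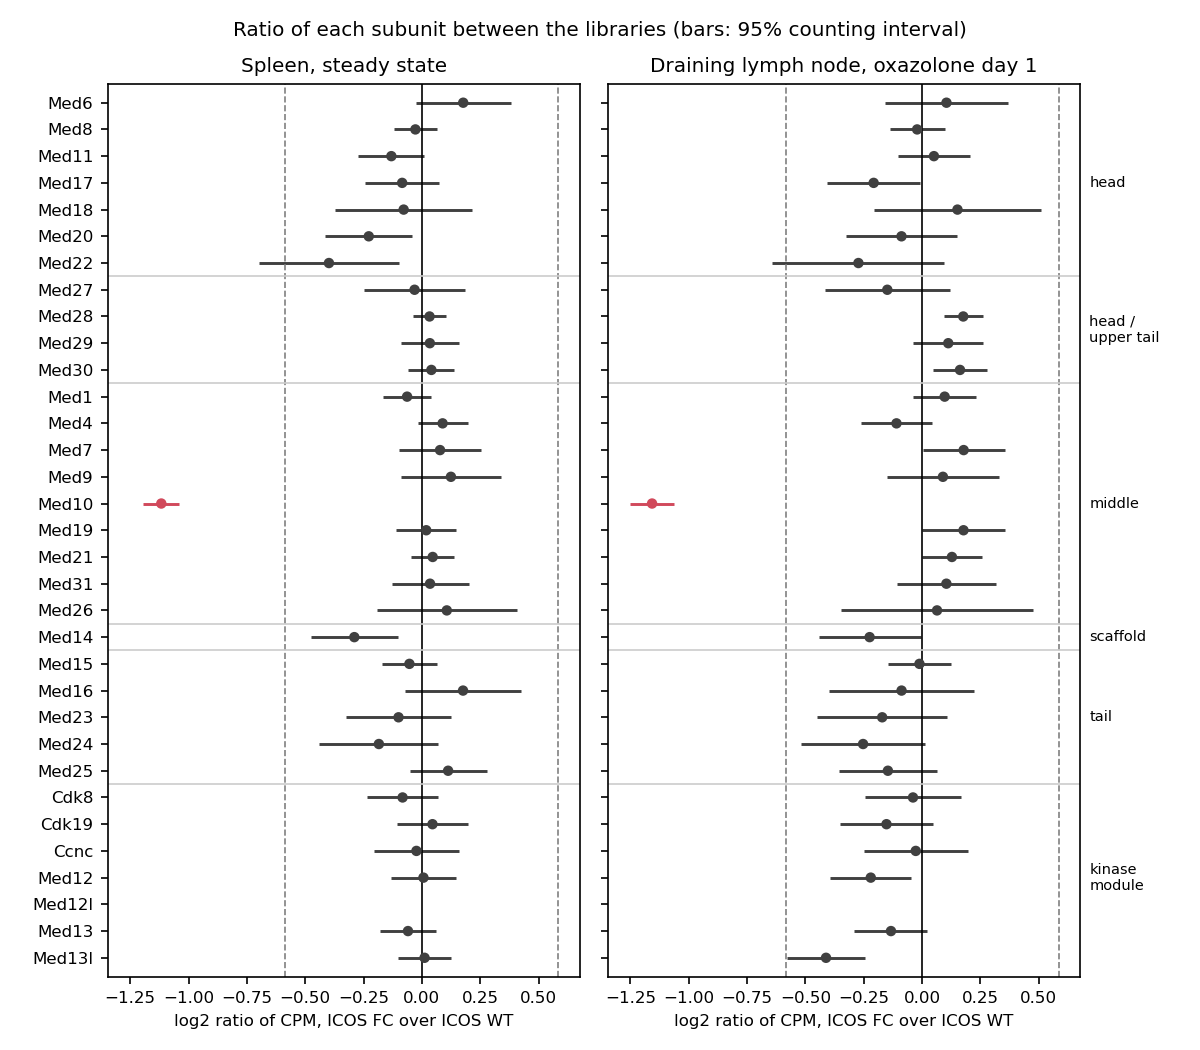
Log2 of CPM under ICOS FC divided by that under ICOS WT, for 32 subunits (points) with exact 95% counting intervals (bars), in spleen (left) and LN (right), with Med10 in red; Med12l, under 5 CPM, is left out. Dashed lines mark 1.5-fold. The other 31 subunits lie between -0.41 and 0.18, and Med10 lies at -1.12 and -1.16.

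Some subunits had smaller differences with counting intervals clear of equality. Some of these calls depend on how the libraries are scaled. In place of the library total, TMM or DESeq2 factors raise every log2 ratio by 0.02 or 0.03 in spleen and by 0.05 in LN. In the spleen, 0 of the 31 members had an interval above equality and 3 (9.68%) had one below it. Of all 8406 genes with at least 5 CPM, 12.1% and 19.3% did. In the LN, 3 (9.68%) had an interval above and 4 (12.9%) below equality (16.3% and 23.5% of 8694 genes). With TMM factors the LN counts were 7 (22.6%) above and 1 (3.23%) below, beside 22.3% and 15.9% of all genes. Which LN intervals were clear of equality thus depends on the scaling. Read against the shares of all genes, counts this small do not set the 31 members apart. Med14, the scaffold that joins the modules and that Med10 lies against, was below equality in spleen under each scaling, at 18.9 and 15.5 CPM in spleen (-0.29 [-0.48, -0.10]). In LN it was at 23.4 and 20.02 CPM (-0.22 [-0.44, -0.01]), and its interval covered equality with TMM factors, DESeq2 factors or a total without ribosomal and mitochondrial genes.

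The other middle subunits, the nearest structural partners of Med10, did not follow it. Med7 and Med21 form the hinge of this module, and Med4 and Med9 pair beside it. Med21 was at 66.2 and 68.3 CPM in spleen (0.05) and 58.6 and 64.0 CPM in LN (0.13). Med7 was at 18.9 and 19.995 CPM in spleen (0.08), and its LN level of 31.1 and 35.2 CPM had an interval just above equality (0.18 [0.00, 0.36]). Med4 was at 49.6 and 52.7 CPM in spleen (0.09) and 45.2 and 41.9 CPM in LN (-0.11), and Med9 had ratios of 0.12 and 0.09. Med1, which many nuclear receptors bind, was at 56.9 and 54.4 CPM in spleen (-0.06) and 55.0 and 58.9 CPM in LN (0.10). Med19 had ratios of 0.02 and 0.18, Med31 of 0.03 and 0.10, and Med26, which recruits elongation factors, of 0.11 and 0.06. Of these 8 middle subunits, 7 had a ratio above 0 in each tissue under each scaling. All genes below 0 numbered 4940 of 8406 in spleen and 5059 of 8694 in LN by library total, and 4306 and 4176 with TMM factors. By library total, the intervals of 8 middle subunits in spleen and 7 in LN covered equality. With TMM factors, 1 in spleen and 4 in LN lay above equality. The summed level of these 8 subunits was 268 and 275 CPM in spleen and 267 and 284 CPM in LN. Med10 alone made up 36.1% and 20.3% of middle-module UMIs in spleen and 39.2% and 21.4% in LN.

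The head subunits, which meet RNA polymerase II and the general factors, summed to 174 and 165 CPM in spleen and 194 and 190 CPM in LN. Med8 led them, at 71.2 and 69.8 CPM in spleen (-0.03) and 74.2 and 73.2 CPM in LN (-0.02). Med17, the core of the head, was at 24.3 and 22.9 CPM in spleen (-0.08) and 28.0 and 24.3 CPM in LN (-0.21 [-0.41, -0.01]), an interval that covered equality under each other scaling. Med22 was the subunit with the lowest spleen ratio after Med10, at 7.84 and 5.95 CPM (213 and 168 UMIs, -0.40 [-0.70, -0.10]), and had 129 and 123 UMIs in LN (-0.27 [-0.64, 0.09]). Med20, which pairs with Med18 in the movable jaw, was at 18.7 and 15.96 CPM in spleen (-0.23 [-0.41, -0.04]) and had a ratio of -0.09 in LN. The partner Med18 had ratios of -0.08 and 0.15. Med11 had -0.13 and 0.05, and Med6 had 0.18 and 0.10. Med27, Med28, Med29 and Med30, which animals have at the junction of head and tail, had spleen ratios from -0.03 to 0.04. In the LN, Med28 (0.18 [0.09, 0.26]) and Med30 (70.5 and 78.9 CPM, 0.16 [0.05, 0.28]) had intervals above equality, Med29 had 0.11 and Med27 -0.15. The ratios of all head and junction subunits lay within 1.5-fold of equality, on either side.

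Tail and kinase-module subunits had mostly low LN ratios by library total, some of which lay above 0 under other scalings, and spleen ratios on both sides of 0. Among the tail subunits, which receive activators, Med15 was at 43.3 and 41.8 CPM in spleen (-0.05) and 54.8 and 54.4 CPM in LN (-0.01). Med25 had ratios of 0.11 and -0.15, Med16 of 0.18 and -0.09, Med23 of -0.10 and -0.17, and Med24 of -0.18 and -0.25, so 2 of 5 tail subunits lay above 0 in spleen and 0 of 5 in LN, or 1 of 5 in LN (Med15) under each other scaling. The 7 kinase-module genes summed to 189 and 187 CPM in spleen and 196 and 173 CPM in LN. In the LN, the 6 with at least 5 CPM had a ratio below 0 by library total, but Cdk8 and Ccnc lay above 0 with TMM or DESeq2 factors. Their median was -0.14 where all genes had -0.04, and -0.09 where all genes had 0.01 with TMM factors. Med13l, a paralog of the subunit that ties the kinase module to the core, was lowest among them, with 642 and 556 UMIs or 42.7 and 32.1 CPM (-0.41 [-0.58, -0.25]), with an interval below equality under each scaling; in spleen it was at 46.9 and 47.3 CPM (0.01). Med12, which activates the kinase, was at 36.8 and 31.6 CPM in LN (-0.22 [-0.39, -0.05], an interval that covered equality with TMM or DESeq2 factors) and 29.9 and 30.0 CPM in spleen (0.01). Med13 was at 43.6 and 39.8 CPM in LN (-0.13) and had -0.06 in spleen. The kinases stayed near equality: Cdk8 was at 25.9 and 24.5 CPM in spleen (-0.08) and 24.7 and 24.0 CPM in LN (-0.04), and Cdk19 at 24.8 and 25.6 CPM (0.05) and 27.4 and 24.6 CPM (-0.15). Ccnc, which encodes cyclin C, had -0.02 and -0.03. Med12l, the paralog of Med12, had 17 and 14 UMIs in spleen and 4 and 13 in LN, too few for a ratio, and made up at most 2.32% of Med12 and Med12l UMIs in a library. None of the sources used here says how reads shared by paralogs were counted.

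The LN pattern moved with transcript length. Over the 31 other members, Spearman's rho between the ratio and the length of the longest coding transcript was -0.30 in spleen and -0.58 in LN, against -0.14 and -0.21 over 8335 and 8619 genes; points of a tissue share both libraries. The 16 members with transcripts of at least 2997 bases had a median LN ratio of -0.15, where 4491 genes of that length had -0.08. The 15 shorter members had a median of 0.10, where 4128 shorter genes had 0.00; another scaling moves these 4 medians alike. The kinase-module transcripts are long, from 2973 bases for Cdk8 to 11006 for Med12l, and the Med10 transcript is short, at 913 bases. The part of length in the kinase-module values was not tested.

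**Figure D3:**
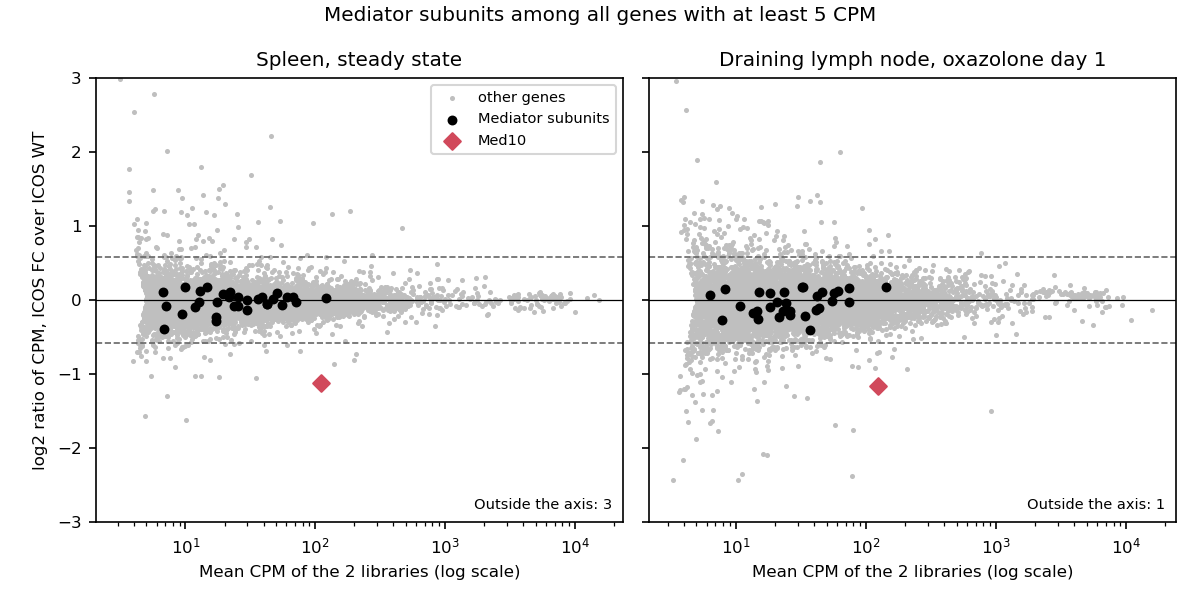
Log2 of CPM under ICOS FC divided by that under ICOS WT, against the mean CPM of both libraries on a log scale, for every gene with at least 5 CPM (grey), with the other Mediator subunits in black and Med10 as a red diamond; dashed lines mark 1.5-fold. Med10 lies at -1.12 in spleen, below all other genes with at least 20 CPM, and at -1.16 in LN, where 10 such genes lie lower. The other subunits lie inside the cloud of genes.

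The rest of the polymerase II machinery gave no gene past the rule either. Lists of RNA polymerase II subunits (12 genes), general factors (8), TFIIH (10), TFIID (13), pause release factors (17), Integrator (14), and enhancer coactivators with cohesin (8) had 0 members higher and 0 lower in either tissue. In the same order, 11, 6, 5, 7, 13, 3 and 8 of these genes reached 20 CPM in spleen. In LN, 12, 6, 5, 7, 13, 6 and 8 did, and the rest could not be called. Beside the 0.588% and 0.255% of all genes in spleen and the 1.11% and 1.05% in LN, a count of 0 does not set lists this short apart. By library total, list medians ran from -0.13 (pause release) to 0.03 (RNA polymerase II) in spleen and from -0.12 (enhancer coactivators and cohesin) to 0.10 (RNA polymerase II) in LN, where all genes had -0.03 and -0.04. RNA polymerase II subunits summed to 816 and 835 CPM in spleen and 950 and 1025 CPM in LN.

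The 2 neighbours of Med10 with enough UMIs to compare, Nsun2 and Papd7, did not share its size of difference. Of 28 annotated genes with a start within 500 kb of the Med10 start, Med10 included, 5 are in the tables, and other genes of the interval were not analysed here, an antisense transcript that overlaps Med10 among them. Nsun2, an RNA cytosine methyltransferase, was at 42.6 and 43.5 CPM in spleen (0.03 [-0.08, 0.15]) and 55.0 and 60.0 CPM in LN (0.13 [-0.01, 0.26]). Papd7, a non-canonical poly(A) polymerase, was at 10.4 and 8.67 CPM in spleen (-0.26 [-0.52, -0.01]) and 15.7 and 13.4 CPM in LN (-0.23 [-0.50, 0.04]). Srd5a1, with 8 to 10 UMIs per library, was too sparse to compare, as was Ube2ql1, with 0, which allows up to 0.106 to 0.199 CPM.

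The deposited cell tables number clusters from 0 to 6 in spleen and 0 to 7 in LN, and the clusters are called by number here. Med10 was lower in every cluster with at least 50 cells of each library except LN cluster 6. Spleen clusters 0 to 5 had ratios of -1.09, -1.17, -1.25, -1.15, -1.15 and -0.80, each past the rule (0.188%, 2.55%, 1.16%, 1.65%, 0.652% and 2.84% of all genes were lower in these clusters). Those clusters differ widely in their cells. Cluster 1 had most of the follicular markers (347.5 and 144 CPM). Cluster 4 had almost none of the Treg markers (96.2 and 104 CPM, against at least 650.5 CPM in the other 5). Resting T cell markers were high in cluster 3 (2027 and 1876 CPM) and in cluster 4 (2069 and 1964 CPM). In cluster 4, Med10 was at 130 and 58.3 CPM, the lowest level of clusters 0 to 5 under both labels. Spleen cluster 6, with 47 and 117 cells, was below the minimum and had 28 and 48 UMIs (-0.49 [-1.19, 0.23]).

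In the LN, clusters 0 to 5 had Med10 ratios of -1.30, -0.97, -1.13, -1.12, -1.18 and -1.34 and cluster 7 had -1.15, each past the rule (2.40%, 2.13%, 4.77%, 1.83%, 2.57%, 3.48% and 6.04% of all genes were lower). The highest level was 217 CPM in cluster 0 of the library labelled ICOS WT, where effector Treg markers summed to 5346 CPM, and 88.1 CPM in the same cluster of the other library. Cluster 5, led by interferon response markers (4887 and 5025 CPM), had 110 and 43.3 CPM. Cluster 6 had 23 and 13 UMIs, at 92.6 and 80.8 CPM (-0.20 [-1.30, 0.85]; 3.65% of genes were lower there), and its cells were shallow, with medians of 2022 and 1788 UMIs. Its interval covers the ratios of the other LN clusters apart from those of clusters 0 and 5. Med10 made up 10.99% to 16.3% of Mediator UMIs in the LN clusters of the library labelled ICOS WT other than cluster 6. In those of the other library it made up 4.37% to 7.31%. Med10 was picked for its difference between the labels and the clusters are parts of the same libraries, so these ranges are descriptions. Cluster 6 had 5.87% [3.76, 8.67] under ICOS WT, inside the ICOS FC range, and 4.73% [2.54, 7.95] under ICOS FC. In spleen clusters 0 to 5 the shares were 11.7% to 14.5% and 6.00% to 7.12%.

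**Figure D4:**
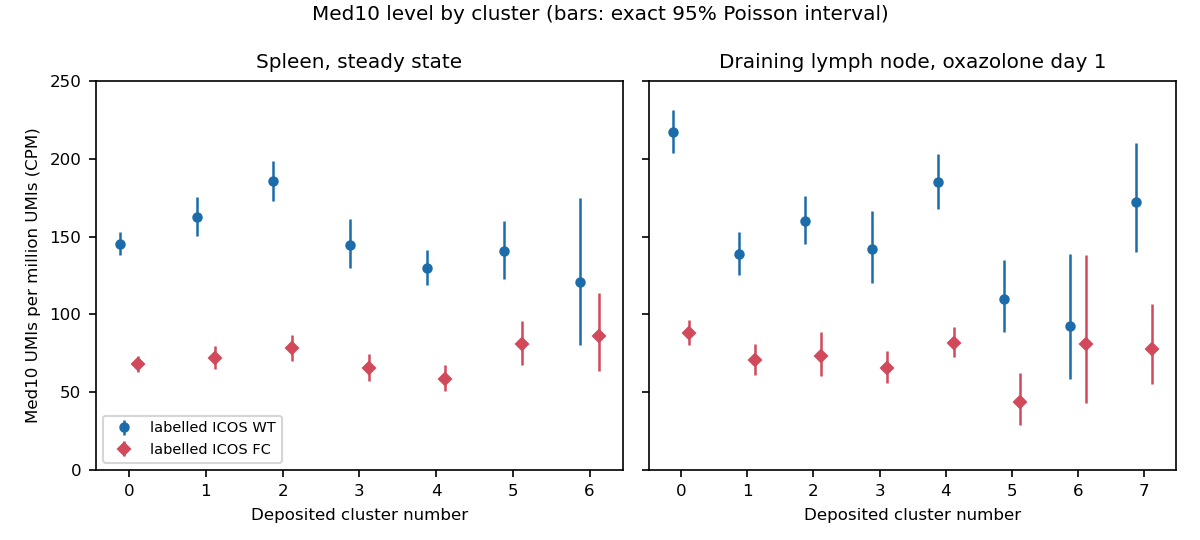
Med10 level in UMIs per 1000000 UMIs for each deposited cluster (horizontal axis), with circles for the library labelled ICOS WT, diamonds for ICOS FC, and bars for exact 95% Poisson intervals. Intervals of the pair are apart in spleen clusters 0 to 5 and LN clusters 0 to 5 and 7, and overlap in spleen cluster 6 and LN cluster 6, which rest on 13 to 48 UMIs.

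Within clusters, other subunits passed the rule as higher about as often as genes at large. As lower, 0% of their pairs with a cluster passed in spleen and 1.14% in LN, less than over all genes. Counts this small do not set the subunits apart. In the spleen, 2 of 115 pairs of a subunit and a cluster were higher and 0 lower (1.31% and 1.55% of all 30973 pairs of a gene and a cluster). These were Cdk19 in cluster 3, at 25.8 and 39.3 CPM (0.60 [0.16, 1.07]; 0.625% of genes were higher there), and Med31 in cluster 4, at 15.4 and 23.4 CPM (0.60 [0.10, 1.10]; 0.926%). In the LN, 5 of 175 pairs were higher and 2 lower (3.11% and 3.42% of all 45001 pairs). Cluster 2 held both lower ones, Med24 with 62 and 15 UMIs (-1.26 [-2.18, -0.43]) and Med13l with 133 and 51 UMIs (-0.60 [-1.09, -0.12]; 4.77% of genes). The higher ones were Med1 in cluster 3 (0.63; 5.03%), Med11 (1.54) and Med19 (1.18) in cluster 5 (3.11%), Med15 in cluster 6 (1.18; 3.36%) and Med30 in cluster 7 (0.63; 3.73%), and apart from Med1 and Med30 they rested on 13 to 31 UMIs per library. No subunit other than Med10 passed the rule in more than 1 cluster of a tissue.

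Some subunits differed by cluster under both labels. Each cluster was set against the other clusters of its library, and a member was counted when it passed the rule the same way under both labels. The clusters came from the same cells, so these values are descriptions. In a cluster, 16 to 28 members other than Med10 reached 20 CPM there under at least 1 label. The base of the counts below differs from this number. A member, Med10 included, had to reach 20 CPM in the cluster or in the other clusters under both labels. Read against the shares of all genes, the counts below, in either tissue, do not set the members apart. In spleen, Med7 was at 29.6 and 33.1 CPM in cluster 1 against 17.0 and 17.0 CPM elsewhere, and at 34.0 and 31.7 CPM in cluster 5, but 10.4 and 9.11 CPM in cluster 4, the cluster low in Treg markers. Cluster 1 also had higher Med15, at 76.0 and 62.4 CPM against 37.5 and 37.0 CPM, so 2 members were higher there (11.4% of all genes), and in cluster 4 Med7 was the 1 lower member (8.97%). In cluster 2, Med30 was higher, at 84.6 and 87.3 CPM (8.35% of genes). In cluster 5, Med11, Med29 and Med7 were higher (16.5% of genes) and Med13l was lower, at 26.1 and 29.3 CPM against 48.3 and 48.5 CPM (10.3%).

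The paired kinases went opposite ways in one cluster. In LN cluster 4, Cdk19 was at 6.91 and 8.41 CPM against 31.1 and 28.9 CPM in the other clusters (log2 ratios of -2.17 [-2.99, -1.45] and -1.78 [-2.37, -1.24]), while Cdk8 was at 36.7 and 35.9 CPM against 22.5 and 20.9 CPM (0.71 and 0.78). Cdk19 therefore gave 15.8% [9.33, 24.4] and 19.0% [13.2, 26.0] of the Cdk8 and Cdk19 UMIs in that cluster, on 16 of 101 and 30 of 158 UMIs. In the other LN clusters the share lay between 43.8% and 73.7%, and in whole libraries between 48.9% and 52.6%. Cluster 4 cells were deep, with medians of 13388 and 12166 UMIs, and had effector Treg markers at 3940 and 2783 CPM and proliferation markers at 1173 and 1291 CPM. Cluster 0, with effector markers at 5346 and 3521 CPM, had shares of 58.7% and 49.4%. Spleen cluster 5, also the deepest of its tissue at 7186 and 5923 UMIs, had the lowest share under the label ICOS FC, 25.0% [15.5, 36.6], and 40.6% [28.9, 53.1] under ICOS WT. Under ICOS WT the lowest spleen share was that of cluster 1, 37.2% [31.2, 43.4], the shallowest cluster of that library with a median of 4167 UMIs. Its share under ICOS FC was 44.9% [39.1, 50.7]. The part of depth in these shares was not tested.

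**Figure D5:**
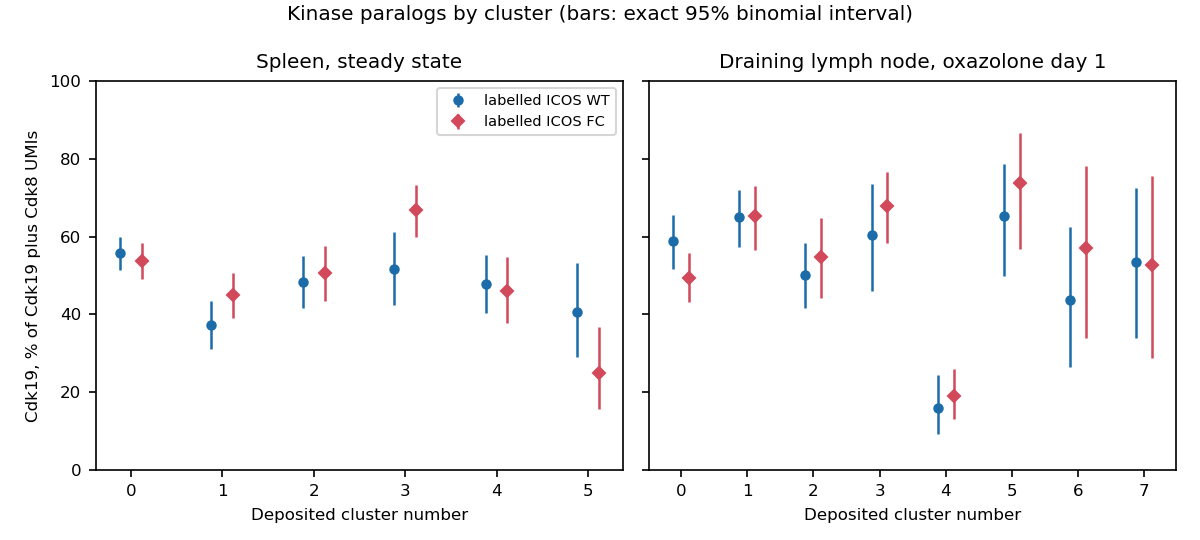
Share of Cdk19 in the summed Cdk19 and Cdk8 UMIs of each deposited cluster with at least 50 cells of each library, in percent, with exact 95% binomial intervals; circles are ICOS WT and diamonds ICOS FC. LN cluster 4, at 15.8% and 19.0%, lies below all other LN clusters under both labels.

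LN cluster 4 also had Med29 (69.1 and 76.5 CPM against 39.4 and 40.0 CPM) and Med9 higher, 3 members with Cdk8 (22.6% of all genes), and Med13 and Med13l lower, 3 members with Cdk19 (16.7%). In the shallow LN cluster 6, 6 members were higher (21.8% of genes): Med13, at 165 and 193 CPM against 41.6 and 38.3 CPM, Med1, Med14, Med12, Cdk8 and Cdk19, and Med28 was lower (4.27%). Of the other LN clusters, Med15 was lower in cluster 1 (20.7%), Med11 in cluster 2 (3.52%), Ccnc in cluster 3 (7.78%), and Med7 and Med10 in cluster 5 (20.4%). Med10 there was at 110 and 43.3 CPM against 176 and 78.6 CPM in the remaining clusters.

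Between the tissues, most subunits were at similar or slightly higher levels in LN by library total; tissue, oxazolone and library cannot be told apart. Of the 22 members with at least 20 CPM under both labels, Med7 was higher past 1.5-fold under both, by 0.72 [0.53, 0.90] and 0.82 [0.65, 0.98] on the log2 scale, and 0 were lower (9.80% and 1.30% of 5327 genes). Med10 itself was slightly higher in LN under each label, by 0.18 [0.11, 0.26] and 0.14 [0.04, 0.25]. Over the 32 members with at least 5 CPM, 11 had both intervals above equality and 0 both below it (35.2% and 12.5% of 8569 genes), among them Med24, by 0.69 and 0.62, Med9, by 0.51 and 0.47, and Med11, by 0.40 and 0.58. The members' median was 0.17 and 0.14, beside 0.13 and 0.12 over all genes. Med13l went the other way under the label ICOS FC, by -0.56 [-0.71, -0.42], with -0.14 [-0.28, 0.00] under ICOS WT.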

How the data were processed

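Per the labels' protocols, sorted cells went into 10x Genomics 3' gene expression libraries. The tools and build named, per the submitters' processing notes, were Seurat 3.0, R 3.6.1, Cell Ranger 4.0.0 and GRCm38.p6 (mm10); none of the sources used here states the gene annotation, the strand setting or whether doublets were removed. Each deposited expression value is, from the values themselves, a natural log: UMIs scaled to 10000 per cell, plus 1. A deposited table of cells lists the UMI count, the number of genes, the percent of mitochondrial counts and the cluster number. Its genotype words Control and KO were taken as ICOS WT and ICOS FC, from the words alone.

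Inverting the log gave whole UMIs, within 0.001, for 100% of 17846401 spleen and 8798056 LN values, and the totals equalled the deposited count of each cell. UMIs were summed per library, or per library and deposited cluster, and divided by the library or cluster total. No cell was left out and no doublet caller was run. With 1 library per group, there was no test. Ratios have exact conditional Poisson intervals and shares exact (Clopper-Pearson) binomial intervals at 95%. The rule of size asked for 20 CPM in 1 of the libraries, 1.5-fold and an interval leaving out equality; medians over lists used 5 CPM; a cluster needed 50 cells of each library. Alternatives used TMM factors (edgeR 4.0.16), DESeq2 1.42.0 size factors, other minima and folds, thinned cells, and subsets of cells. All members were named. Members, modules, lists, markers, motifs and the rule were written by hand with earlier results of these data known, and the pair of genes for the printed sequences was chosen after their values were seen. Python 3.11.15, numpy 2.4.6, scipy 1.17.1, pandas 2.3.3 and matplotlib 3.10.9 were used.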

Additional observations from a re-analysis of the deposited data

How the results depend on the processing

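The Med10 ratio kept its direction and its place past the rule under each of the 11 alternatives run in each tissue: TMM and DESeq2 factors, a total without ribosomal and mitochondrial genes, thinned cells, clusters weighted equally, the average of per-cell CPM, and subsets of cells. It ran from -1.15 to -1.06 in the spleen and from -1.17 to -1.03 in the LN. The LN values that moved past the main counting interval were -1.03 in cells thinned to 2000 UMIs and -1.05 as the average of per-cell CPM. The median of the other members ran from -0.05 to 0.04 in the spleen and from -0.07 to 0.11 in the LN, so its sign depends on the setting. The number of other members past the rule was 0 higher and 0 lower in both tissues, except that in the LN 1 was lower in thinned cells (Med12) and 1 with a fold threshold set below 1.5-fold (Med13l). The equally weighted clusters and the average of per-cell CPM have no interval, so calls there are by size alone. Intervals of single members under other scalings, and leaving out cells with shared barcodes, spleen cluster 4 or LN clusters 6 and 7 were settings chosen after seeing the data. No paired analysis was possible because each group was 1 library. Leaving out a replicate was not possible for the same reason. Depth limits what can be said of the rarer members: the interval of Med26 ran from -0.35 to 0.48 in the LN, and no interval covers differences between animals.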

Other observations

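Med10 was among the genes whose difference between the labels was clear in nearly every cluster. Of the 30 spleen genes that passed the rule as higher, 8 had intervals above equality in all 6 clusters (Rgs2, Jun, Pink1, Ppp1r15a, Junb, Batf, Pim1 and AC149090.1), and of the 61 such LN genes, Gm47283 and AC149090.1 did in all 8. Of the 13 spleen genes that passed the rule as lower, 3 had intervals below equality in all 6 clusters: Med10, Thy1, a surface glycoprotein of T cells, and Rnaset2a, whose near-identical copy makes its tags uncertain. Across these clusters the Med10 ratio ran from -1.25 to -0.80 and the Thy1 ratio from -1.10 to -0.33. Of the 58 such LN genes, Thy1 had such intervals in all 8 clusters, from -1.03 to -0.59, and Med10, Fosb, Nkg7 and Ly6c1 in 7. These genes were named after their values were seen, and Med10 was picked for its difference. The clusters are parts of the same libraries, so they are no repeats of a comparison. Whether an interval is clear also depends on how many UMIs a gene has.

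The genes lower in both tissues were Dapl1, Med10, Nkg7, Nrn1, Pdcd1 and Thy1, 46.2% of the 13 spleen genes and 10.3% of the 58 LN genes. No other Mediator subunit and no gene of the polymerase II lists was among them. That absence follows from the counts of 0 lower in each tissue given above and is not a further result. Of all genes reaching 20 CPM, 0.255% of 5105 were lower in spleen and 1.05% of 5506 in LN. Of the 9 genes higher in both tissues, Icos was one.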
